A study of Mus musculus with 6 samples.

Results

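Autophagy starts when the ULK1 kinase complex is switched on, and this report describes the transcripts of the genes that carry out that step in mouse microglia with and without forced expression of PGC-1α. The members were 10 genes named by symbol, namely Ulk1, Ulk2, Atg13, Rb1cc1, Atg101, Atg14, Becn1, Pik3c3, Ambra1 and Uvrag, of 23462 genes with a symbol on the array. They were measured by 17 non-control probes, whose transcript accessions were matched to RefSeq gene symbols. Microglia were taken from C57BL/6 mice, which the labels give as male and 10 weeks old, and were profiled at rest on 1-colour Agilent arrays (n = 3 of each group). PGC-1αf/f mice carry a loxP-flanked PGC-1α transgene with an eGFP reporter, and no Cre. mPGC-1α mice carry the same transgene together with Cx3cr1-CreERT2, a tamoxifen-dependent Cre placed in the Cx3cr1 locus, so that Cre acts in microglia and in other cells that use this locus. Per the study's methods, tamoxifen was given on 5 consecutive days and experiments followed a 30-day interval. The paper states that this wait keeps the overexpression to microglia and out of macrophages. The controls were PGC-1αf/f littermates, and the methods do not say of the array controls in particular whether they received tamoxifen. Cells were selected magnetically through the surface receptor P2RY12.

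ULK1 and its paralogue ULK2 are the serine/threonine kinases of a complex that also holds the scaffold FIP200 (encoded by Rb1cc1), the adaptor ATG13 and its stabilising partner ATG101. AMPK activates this complex and mTORC1 restrains it when nutrients are plentiful. The active kinase phosphorylates a lipid kinase complex made of VPS34 (Pik3c3), Beclin 1 (Becn1) and either ATG14, which directs it to nascent autophagosomes, or UVRAG, which directs it to endosomes. AMBRA1 binds Beclin 1 and promotes ULK1 activity. In microglia, autophagy clears damaged mitochondria and limits inflammatory signalling. Much of the control of this step acts on proteins, through phosphorylation and ubiquitin, which an array of transcripts does not read. PGC-1α is a coactivator that works with nuclear receptors such as ERRα on genes of mitochondrial biogenesis, and the study follows ULK1 downstream of it, so the comparison asks whether initiation genes differ in transcript level when PGC-1α is forced.

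All values are log2 signal minus the array's own 75th percentile, so a value of 1 is a signal at 2 times that percentile. Values of different probes cannot be ranked against each other. All 17 of the listed microglial genes had a probe well above background on all 6 arrays. So did 14 of 17 blood leukocyte genes, 8 of 8 of border macrophages and 7 of 8 of astrocytes. This count therefore does not tell the labelled cell type from others. The summed signal of 11 microglial markers was 196 to 253 times the 75th percentile over the 6 arrays. A pair of arrays stood apart. The mean correlation of PGC-1αf/f replicate 3 with other arrays was 0.928, against at least 0.962 for the rest. Its summed signal over 16 blood leukocyte markers was 19.2 times the 75th percentile, against 115 and 137 on the other PGC-1αf/f arrays and 137 to 166 on the mPGC-1α arrays. Of these markers, 13 were well above background on all 6 arrays, Ms4a1 of B cells on mPGC-1α replicates 2 and 3 alone, and 2 on none, among them Cd79a of B cells. On mPGC-1α replicate 3, 0 of 4 Y-linked genes were well above background, against 4 of 4 on each other array, which goes against its label as male. For members, differences are also given without these arrays or as a range over the fits that leave out each of the 6 arrays in turn, and for other genes where leaving out an array of this pair moved the value by over 1.5 times. In the summed signal of oligodendrocyte markers the groups did not overlap (18.5 to 24.2 in PGC-1αf/f, 13.1 to 15.2 in mPGC-1α), nor did they in that of dissociation response genes (23.9 to 29.0 and 48.5 to 51.4). The groups overlapped for the markers of endothelial and mural cells (2.13 to 5.79 and 4.16 to 8.60), neurons (13.4 to 17.4 and 15.6 to 17.8), astrocytes (12.8 to 17.0 and 15.1 to 23.6) and border macrophages (9.52 to 11.6 and 10.1 to 17.4). The mPGC-1α mean was higher for 16 of 16 blood leukocyte, 10 of 11 endothelial and mural and 7 of 7 border macrophage markers. It was higher for 7 of 8 neuron, 4 of 8 astrocyte, 3 of 11 microglial and 1 of 11 oligodendrocyte markers. The part of these differences in the results was not tested. Fewer cells of a type and less RNA per cell cannot be told apart in such samples. The arrays of each group also lay in a slide row of their own, so slide row and group cannot be told apart. Only mPGC-1α mice carried the Cre allele, and tamoxifen in the array controls is not stated. Neither can be told apart from PGC-1α in this comparison.

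The gene that was forced was examined as a reference, although which of its transcripts, native or transgenic, the probes read was not analysed here. The brighter Ppargc1a probe gave 0.19, -0.44 and -1.21 in PGC-1αf/f and 0.57, 0.28 and 0.08 in mPGC-1α microglia. The groups overlapped, and the difference was 0.80 (SE 0.35, limma adjusted p 0.306). It was 0.44 without PGC-1αf/f replicate 3 and 1.14 without PGC-1αf/f replicate 1. Esrra, which encodes the nuclear receptor ERRα, differed by 0.11 (SE 0.13, adjusted p 0.696), with a range of 0.04 without mPGC-1α replicate 2 to 0.17 without mPGC-1α replicate 3. Cx3cr1, whose locus carries the Cre, was lower in all mPGC-1α arrays than in any PGC-1αf/f array, by 0.51 at its probe with a value on every array (95% interval of mPGC-1α minus PGC-1αf/f -0.85 to -0.17, adjusted p 0.194). The other Cx3cr1 probe, without a value on replicate 2 of either group, differed by -0.85 (SE 0.30, limma adjusted p 0.275).

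None of the initiation genes passed the threshold, and the measured differences were small. Of the 17 probes, 15 were well above background on all 6 arrays and were tested, covering all 10 genes. With limma, 0 of 15 had an adjusted p under 0.05, the lowest being 0.268. Over the whole array, 20 of 25257 probes did, which is 0.0792%. At an unadjusted p under 0.05, 2 of the 15 were lower in mPGC-1α and 0 were higher, both of the 2 being Rb1cc1 probes. This count was 2 without PGC-1αf/f replicate 3 and 0 without mPGC-1α replicate 3. The share of all tested probes that were lower at this level was 9.21%. The differences ran from -0.44 to 0.06 on the log2 scale. The 95% interval lay within 1 log2 unit of 0, that is within a 2-fold change either way, for all 15 probes, as it did for 76.6% of all probes tested.

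The direction was mostly downward, with small sizes. The mPGC-1α mean was below the PGC-1αf/f mean at 14 of 15 probes, against 50.3% of all probes tested. The median difference was -0.22, beside -0.0026 over all probes. The 15 probes are not independent, since 5 of them read Rb1cc1 and all share the same arrays. At 4 of the 15 the mPGC-1α arrays all lay below the PGC-1αf/f arrays, and at 0 all above, while 13.7% of the tested probes with a value on every array did not overlap in the downward direction. Without PGC-1αf/f replicate 3 the median was -0.17 with 14 of 15 below 0, and without mPGC-1α replicate 3 it was -0.15 with 13 of 15. Slide columns 1 and 2 held an array of each group. Within column 1 the difference was below 0 at 13 of 15 probes (median -0.16), and within column 2 at 11 of 15 (median -0.15). When arrays were centred on their medians instead, the median of all probes moved to -0.14 and that of the members to -0.36. The spread between replicates had a median SD of 0.18 over the 15 probes and a range of 0.10 to 0.36, beside a median of 0.22 over all probes tested with a value on every array.

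**Figure D1:**
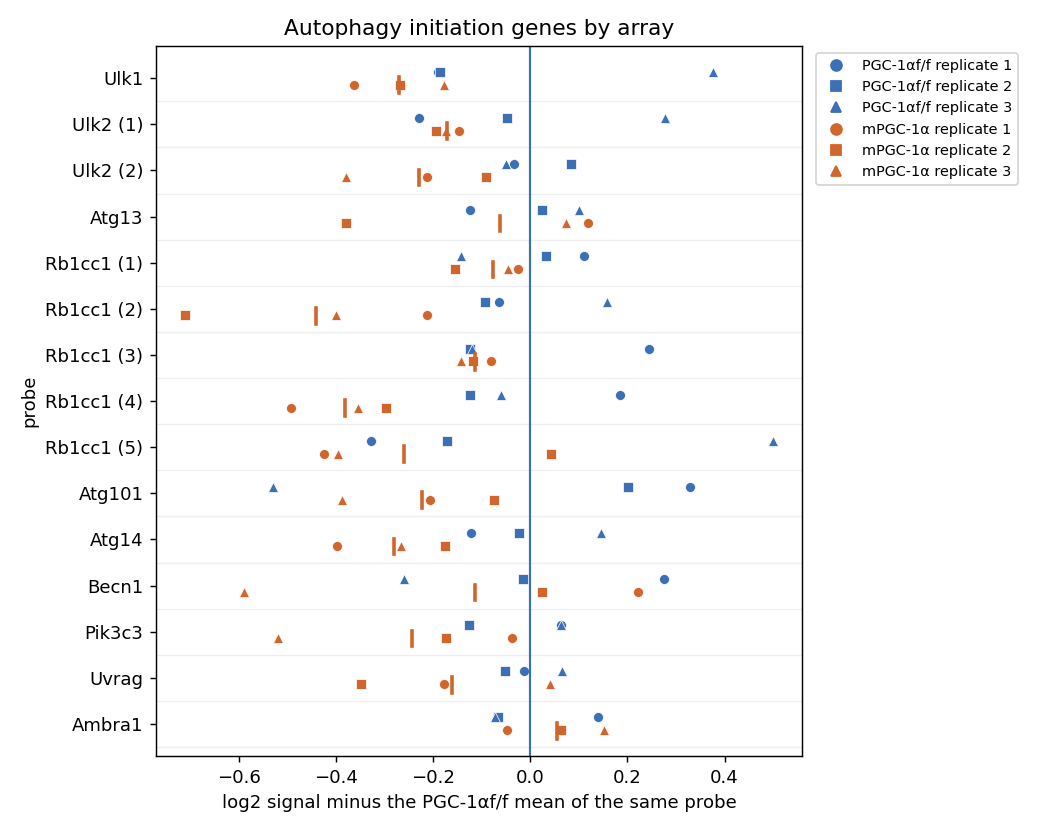
Log2 signal of each tested probe on the 6 arrays, as the distance from the PGC-1αf/f mean of that probe. Symbols give the replicate, the vertical orange bar marks the mPGC-1α mean, and probes of a gene are numbered from the brightest. The groups separate at 4 of 15 probes, of Ulk2, Rb1cc1 and Atg14.

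Ulk1, the kinase the study follows, did not pass the threshold and had a lower mean in mPGC-1α microglia. Its well-measured probe (A_55_P1977314) gave 1.58, 1.59 and 2.15 in PGC-1αf/f and 1.41, 1.50 and 1.59 in mPGC-1α microglia. The 3 mPGC-1α values lay close together, PGC-1αf/f replicate 3 was high, and mPGC-1α replicate 3 lay just above PGC-1αf/f replicates 1 and 2. The means were 1.77 ± 0.32 (SD, n = 3) and 1.50 ± 0.09 (SD, n = 3), which gave a difference of -0.27 (SE 0.19, limma adjusted p 0.480). Its 95% interval ran from -0.71 to 0.17, or from 0.61-fold to 1.13-fold. Without PGC-1αf/f replicate 3, the array with few leukocyte transcripts, the difference was -0.08, and without mPGC-1α replicate 3 it was -0.32. Within slide columns 1 and 2 it was -0.17 and -0.08. A second Ulk1 probe was well above background on 0 of 6 arrays and was not tested.

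The sequence around the start of Ulk1 is printed because the study follows this gene as downstream of PGC-1α, and that of Ulk2 because it is the paralogue. Both are from RefSeq on GRCm38.p6, 250 bases before to 30 bases after the gene's start on the gene's own strand. They lie at chr5:110810052-110810331 (minus strand) and chr11:61855063-61855342 (minus strand). Capitals mark the GC box GGGCGG, read on both strands, a motif of many promoters of widely used genes.
Ulk1: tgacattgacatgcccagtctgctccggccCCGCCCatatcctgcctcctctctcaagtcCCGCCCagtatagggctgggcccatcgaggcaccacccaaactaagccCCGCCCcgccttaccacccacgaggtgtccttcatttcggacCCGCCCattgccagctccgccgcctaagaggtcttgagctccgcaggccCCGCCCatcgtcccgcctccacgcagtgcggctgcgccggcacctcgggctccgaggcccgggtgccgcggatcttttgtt
Ulk2: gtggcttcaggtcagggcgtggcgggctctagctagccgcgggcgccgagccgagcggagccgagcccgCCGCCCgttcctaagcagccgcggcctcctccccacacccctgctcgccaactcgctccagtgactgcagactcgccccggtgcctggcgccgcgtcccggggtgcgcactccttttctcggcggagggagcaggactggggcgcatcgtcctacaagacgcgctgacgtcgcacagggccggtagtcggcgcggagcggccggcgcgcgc

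The Ulk1 window held 5 GC boxes and that of Ulk2 held 1. Over windows of 300 bases, G and C made up 68.0% of Ulk1 and 74.7% of Ulk2, against a median of 52.7% over 32851 promoters. The ERR half-site AAGGTCA and its longer form TNAAGGTCA, which contains it, were searched on both strands in the promoters of the 7 members that could be matched, and neither was found. They occur in 4.72% and 1.28% of all promoters. The FOXO site GTAAACA (3.65% of promoters) and the cAMP response element TGACGTCA (1.79%) were not found in the 7 either. The GC box was found in 4 of the 7, those of Ulk1, Ulk2, Uvrag and Atg14, and in 35.7% of all promoters. The paper reports PGC-1α binding at Ulk1 in microglia after stroke. In a microglial cell line it reports more Ulk1 reporter activity and transcript with PGC-1α and ERRα together. The windows of 300 bases searched here are narrower than the promoter regions the paper used. Control of Ulk1 by ERRα was not tested.

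Ulk2 was read by a pair of probes that differed in how the arrays fell. The brighter (A_55_P2060036) gave 0.22, 0.40 and 0.73 in PGC-1αf/f and 0.30, 0.26 and 0.28 in mPGC-1α microglia. The mPGC-1α values lay inside the PGC-1αf/f range, and the difference was -0.17 (SE 0.16, limma adjusted p 0.605), with a range of -0.29 to -0.03 over the left-out arrays and the value nearest 0 without PGC-1αf/f replicate 3. The dimmer (A_55_P2724724) gave -0.70, -0.58 and -0.72 against -0.88, -0.76 and -1.05. Here the groups did not overlap, if narrowly, and the difference was -0.23 (SE 0.14, adjusted p 0.417). It was -0.25 without PGC-1αf/f replicate 3 and -0.15 without mPGC-1α replicate 3.

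Atg13, the adaptor that mTORC1 phosphorylates, gave 0.52, 0.67 and 0.75 in PGC-1αf/f and 0.76, 0.27 and 0.72 in mPGC-1α microglia. The groups overlapped, mPGC-1α replicate 2 being the lowest of all. The difference was -0.06 (SE 0.17, limma adjusted p 0.875), and over the left-out arrays it ran from -0.15 without mPGC-1α replicate 1 to 0.10 without mPGC-1α replicate 2. Atg101, whose product stabilises ATG13, gave 1.17, 1.04 and 0.31 in PGC-1αf/f and 0.64, 0.77 and 0.45 in mPGC-1α microglia. PGC-1αf/f replicate 3 was here the lowest array of all, while for Ulk1 it was the highest. The Atg101 difference of -0.22 (SE 0.24, adjusted p 0.658) was -0.49 without that array (adjusted p 0.293), -0.06 without PGC-1αf/f replicate 1, -0.12 without PGC-1αf/f replicate 2 and -0.14 without mPGC-1α replicate 3.

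Rb1cc1 encodes FIP200, the scaffold that gathers the complex, and it was covered by 6 probes, of which 1 was well above background on 0 of 6 arrays. At all of the other 5 the mPGC-1α mean was lower, by different amounts. The lowest unadjusted p of any member was 0.032, at probe A_51_P332100, which gave -0.20, -0.51 and -0.44 in PGC-1αf/f and -0.87, -0.68 and -0.74 in mPGC-1α microglia. The groups did not overlap there. The difference was -0.38 (SE 0.14, limma adjusted p 0.268), which is 0.77-fold. Probe A_52_P542172 gave 0.26, 0.23 and 0.48 against 0.11, -0.39 and -0.08. The groups did not overlap there either, and the difference was -0.44 (SE 0.17, adjusted p 0.275). Without PGC-1αf/f replicate 3 these differences were -0.41 and -0.36, and without mPGC-1α replicate 3 they were -0.39 and -0.46. The brightest probe (A_55_P2905159) gave 2.64, 2.56 and 2.38 against 2.50, 2.37 and 2.48. There the groups overlapped, with a difference of -0.08 (95% interval -0.39 to 0.24, adjusted p 0.790) and a range of -0.15 to -0.02 over the left-out arrays. At the remaining pair of probes the groups overlapped too, with differences of -0.11 and -0.26. Over the left-out arrays these ran from -0.18 to 0.01 and from -0.42 to -0.01, the last value being without PGC-1αf/f replicate 3. Whether the probes of this gene differ from one another was not tested, and which transcript variants each of them reads was not analysed here.

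**Figure D2:**
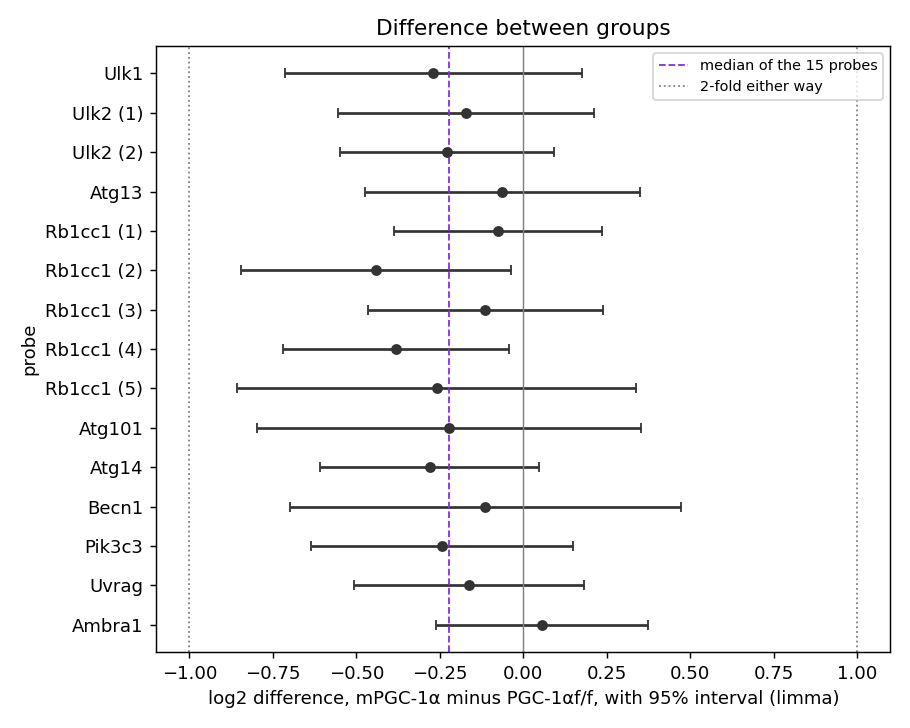
Difference between group means on the log2 scale with its 95% interval from limma for each tested probe, numbered from the brightest within a gene. The solid line is at 0, the dashed line at the median of the 15 probes (-0.22) and the dotted lines at a 2-fold change. All intervals lie between -0.86 and 0.47, and those of 2 Rb1cc1 probes do not reach 0.

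The subunits of the lipid kinase complex followed the same pattern of small differences. Atg14, the subunit that brings the complex to sites of autophagosome formation, gave -0.45, -0.36 and -0.19 in PGC-1αf/f and -0.73, -0.51 and -0.60 in mPGC-1α microglia. The groups did not overlap. The difference was -0.28 (SE 0.14, limma adjusted p 0.351), which is 0.82-fold. It was -0.21 without PGC-1αf/f replicate 3, -0.29 without mPGC-1α replicate 3, and -0.28 and -0.15 within slide columns 1 and 2. The start of Atg14 is printed because it was the only one of the 7 member promoters searched with an E-box, CACGTG, the motif read by TFEB and related factors, which 7.15% of all promoters hold. The window, from the same source, lies at chr14:47568405-47568684 (minus strand), and capitals mark the E-box near its end and 2 GC boxes before it.
Atg14: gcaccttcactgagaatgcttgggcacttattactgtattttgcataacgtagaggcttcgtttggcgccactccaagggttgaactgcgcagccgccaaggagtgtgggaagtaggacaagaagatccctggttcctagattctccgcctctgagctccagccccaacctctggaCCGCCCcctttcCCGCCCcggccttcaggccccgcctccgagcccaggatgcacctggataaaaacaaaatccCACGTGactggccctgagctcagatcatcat

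Uvrag, which takes the place of ATG14 in the endosomal form of the complex, gave 2.45, 2.41 and 2.53 in PGC-1αf/f and 2.28, 2.11 and 2.50 in mPGC-1α microglia. Only mPGC-1α replicate 3 lay within the PGC-1αf/f range, and the difference was -0.16 (SE 0.15, limma adjusted p 0.586). It was -0.13 when PGC-1αf/f replicate 3 was left out, -0.07 without mPGC-1α replicate 2 and -0.26 without mPGC-1α replicate 3. Becn1, the scaffold of both forms, gave -1.26, -1.55 and -1.79 in PGC-1αf/f and -1.31, -1.51 and -2.12 in mPGC-1α microglia. Replicates 1 and 2 of both groups were nearly level, and replicate 3 was the lowest array of each group. The difference of -0.11 (SE 0.25, adjusted p 0.837) turned to 0.12 when mPGC-1α replicate 3 was left out and was -0.24 when PGC-1αf/f replicate 3 was. Pik3c3, the catalytic subunit, gave -0.80, -0.99 and -0.80 against -0.90, -1.04 and -1.38. The groups overlapped, mPGC-1α replicate 3 being the lowest array, and the difference of -0.24 (SE 0.17, adjusted p 0.471) was -0.11 without it and -0.21 without PGC-1αf/f replicate 3.

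Ambra1, the regulator that binds Beclin 1, was the only member with a higher mean in mPGC-1α microglia. It gave 1.63, 1.43 and 1.42 in PGC-1αf/f and 1.44, 1.56 and 1.65 in mPGC-1α microglia. The groups overlapped over almost their whole range. The difference was 0.06 (95% interval -0.26 to 0.37, limma adjusted p 0.853). It ran from 0.01 without mPGC-1α replicate 3 to 0.13 over the left-out arrays, and the sign turned under a median shift (-0.08) and with normexp and quantile normalization (-0.07).

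**Figure D3:**
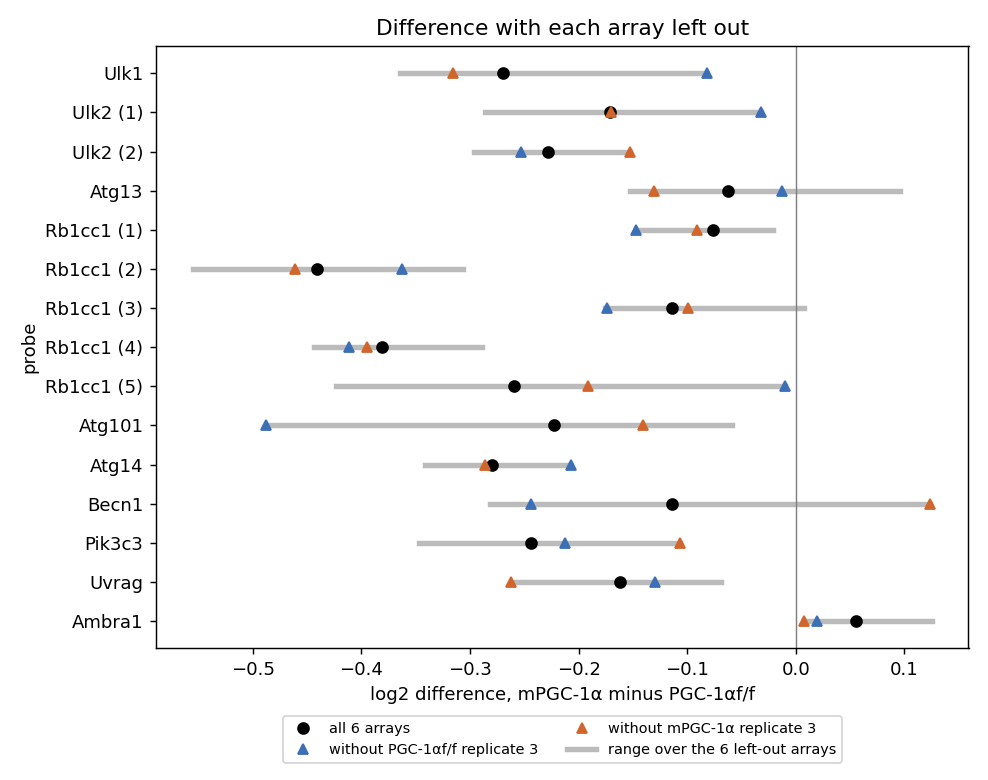
Difference between group means for each tested probe with all 6 arrays (black), without PGC-1αf/f replicate 3 (blue) and without mPGC-1α replicate 3 (orange). The grey bar spans the 6 fits that leave out an array in turn, and it crosses 0 for Atg13, Becn1 and the third Rb1cc1 probe.

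PGC-1αf/f replicate 3, the array with the lowest leukocyte signal, was the highest of the 6 arrays at 6 of 15 probes and the lowest at 2. Over all probes tested with a value on every array it was the highest or the lowest at 58.3%. By its profile over the 6 arrays, Ulk1 was compared with 12292 genes that are not members, each centred on its own mean. Among the smallest mean absolute differences were 0.028 for Fbxl2, 0.033 for Mapk1ip1, 0.034 for Txlng and 0.034 for Slc16a7, against a median of 0.24 over all genes compared. Fbxl2, for example, gave 0.66, 0.64 and 1.22 in PGC-1αf/f and 0.46, 0.55 and 0.55 in mPGC-1α microglia. Like Ulk1, by which they were chosen, these genes were highest on PGC-1αf/f replicate 3. Among members at their brightest probes, Ulk2 at 0.093 and Atg14 at 0.11 were nearest to Ulk1, and Becn1 at 0.40 was farthest. The dimmer Ulk2 probe was not compared, and its PGC-1αf/f replicate 3 value was the lowest of that group. Values were not scaled to the spread of each gene, which therefore also enters the distance.

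**Figure D4:**
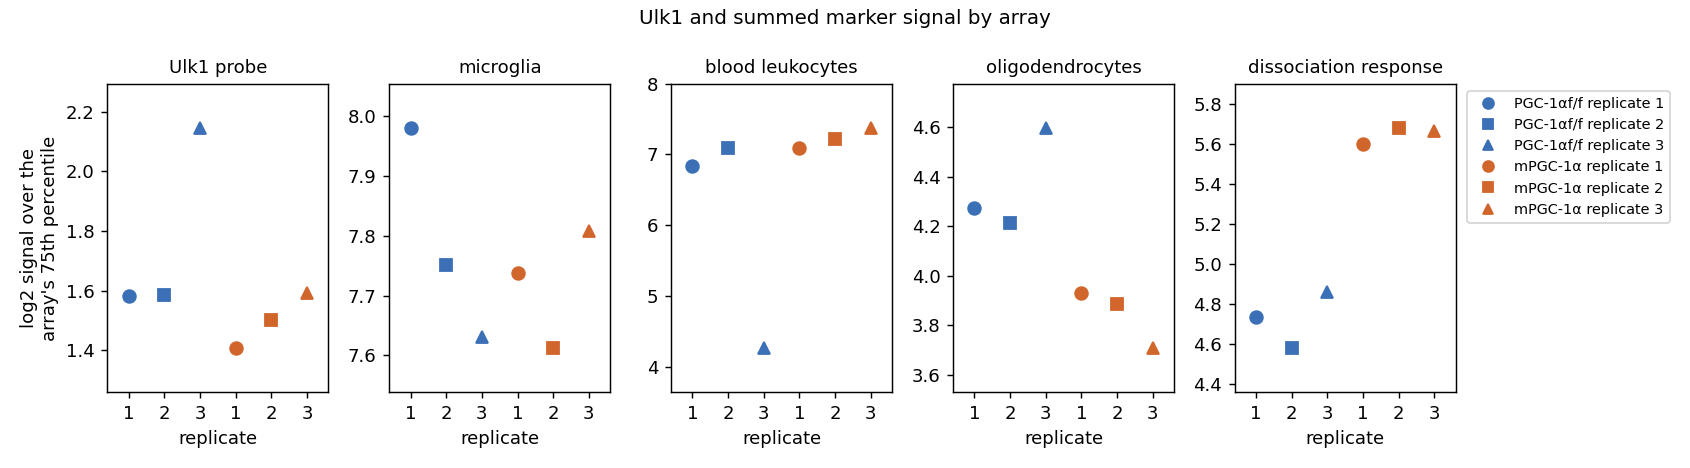
The Ulk1 probe and the summed signal of 4 marker lists on each array, all as log2 of the signal over the array's 75th percentile, with an axis range of its own in each panel. PGC-1αf/f replicate 3 is high for Ulk1 and low for blood leukocyte markers, and the groups separate for oligodendrocyte markers and dissociation response genes.

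The genes around this step were read from 6 lists of 58 genes in all. Of these, 54 were tested with 82 probes, and with limma 0 passed an adjusted p of 0.05. At an unadjusted p under 0.05, 4 probes were lower and 3 higher, where 9.21% and 7.53% of all probes were lower and higher. The median difference of the probes was -0.03. Represented by the brightest probe with a value on every array, 28 of 50 genes had a lower mean, and so did 9 of the 10 members. By list, the mean was lower for 5 of 7 other subunits and partners of the lipid kinase complex (median -0.09), 6 of 9 phagophore growth factors (median -0.11), 5 of 9 genes of AMPK and its activators (median -0.07), 8 of 15 of mTORC1 and its regulators (median -0.04), 3 of 7 transcription factors (median 0.01) and 1 of 3 ULK relatives (median 0.16). Whether the members differ from these lists was not tested.

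Among upstream kinases, 0 of 13 probes for AMPK and its activators passed. Prkaa2, a catalytic AMPK subunit, gave -1.50, -2.81 and -3.03 in PGC-1αf/f and -1.17, -1.45 and -1.82 in mPGC-1α microglia. The groups overlapped through PGC-1αf/f replicate 1, and the difference was 0.96 (SE 0.40, limma adjusted p 0.298). The regulatory subunits Prkag1 and Prkab1 differed by 0.27 (adjusted p 0.411) and -0.23 (adjusted p 0.560), and over the left-out arrays they ran from 0.16 to 0.35 and from -0.40 to -0.11, with 0.16 and -0.40 both without PGC-1αf/f replicate 1 and -0.11 without PGC-1αf/f replicate 3. Of mTORC1 and its regulators, 0 of 22 probes passed. Rragd, a Rag GTPase that recruits mTORC1 to lysosomes, differed by 0.95 (SE 0.40, adjusted p 0.297), and by 0.50 without PGC-1αf/f replicate 3. Rptor, the mTORC1 scaffold Raptor, differed by -0.30 (adjusted p 0.445), and Lamtor2, a part of the lysosomal anchor of mTORC1, by 0.32 (adjusted p 0.50). Without PGC-1αf/f replicate 3 these were -0.17 and 0.13, and without PGC-1αf/f replicate 1 they were -0.47 and 0.57.

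The relatives of ULK1 did not pass in any of 4 probes. Ulk4 differed by 0.29, Stk36 by 0.16 and Ulk3 by -0.08, with adjusted p of 0.647 to 0.791. Without PGC-1αf/f replicate 3 the Ulk4 difference was -0.0096 and that of Stk36 was 0.05, and without mPGC-1α replicate 3 the values of Ulk4, Stk36 and Ulk3 were 0.47, 0.39 and -0.17. Without mPGC-1α replicate 1 the values of these genes were 0.09, 0.02 and -0.01. Among other subunits and partners of the lipid kinase complex, 0 of 18 probes passed. Bcl2, which binds and restrains Beclin 1, had the larger difference at its brighter probe, 0.50 (SE 0.23, limma adjusted p 0.328), or 0.31 without PGC-1αf/f replicate 3, and its relative Bcl2l1 differed by 0.30 (adjusted p 0.333). Pik3r4, the VPS15 subunit, lay lower on every mPGC-1α array (0.57, 0.61 and 0.50) than on any PGC-1αf/f array (0.63, 0.76 and 0.87), by 0.19 on average (adjusted p 0.463). Sh3glb1 encodes a partner of UVRAG, and its probe A_66_P125730 gave 1.54, 1.56 and 1.69 against 0.98, 0.74 and 1.16. The groups did not overlap there, the difference was -0.64 (SE 0.15, adjusted p 0.157), and with array weights the adjusted p was 0.0389. The other pair of Sh3glb1 probes differed by -0.09 and 0.08, or by -0.15 and -0.06 without mPGC-1α replicate 3. Without mPGC-1α replicate 1 that pair differed by -0.04 and 0.23.

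Downstream, the factors that extend the autophagosome membrane had 0 of 14 probes past the threshold. Zfyve1, which encodes DFCP1, a marker of the membrane sites where autophagosomes form, gave -0.85, -0.77 and -0.70 in PGC-1αf/f and -1.14, -1.24 and -1.18 in mPGC-1α microglia. The groups did not overlap, and the difference was -0.42 (SE 0.12, limma adjusted p 0.205). Wipi2 and Atg9a, which act at the same membrane, also did not overlap and differed by -0.33 (adjusted p 0.373) and -0.24 (adjusted p 0.428), and Wipi2 by -0.17 without PGC-1αf/f replicate 3. The lipid transfer gene Atg2b differed by -1.02 at a dim probe that was well above background on 3 of 3 PGC-1αf/f and 1 of 3 mPGC-1α arrays. That probe, 1 of the 4 lower ones counted above, was tested only through the group where it was higher. At the other Atg2b probe the difference was 0.0039, or 0.09 without PGC-1αf/f replicate 3. Of transcription factors that act on autophagy genes, 0 of 11 probes passed. Foxo1 gave 1.70, 1.76 and 1.81 in PGC-1αf/f and 1.49, 1.46 and 1.21 in mPGC-1α microglia, a difference of -0.37 without overlap (SE 0.14, adjusted p 0.263). Zkscan3, a repressor of autophagy genes, was at -0.34 (adjusted p 0.344), or -0.22 without PGC-1αf/f replicate 3. Foxo3 was at 0.42, and at 0.26 without mPGC-1α replicate 3. Its probe was well above background on 2 of 3 PGC-1αf/f and 3 of 3 mPGC-1α arrays, so that it too was tested only through the group where it was higher.

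**Figure D5:**
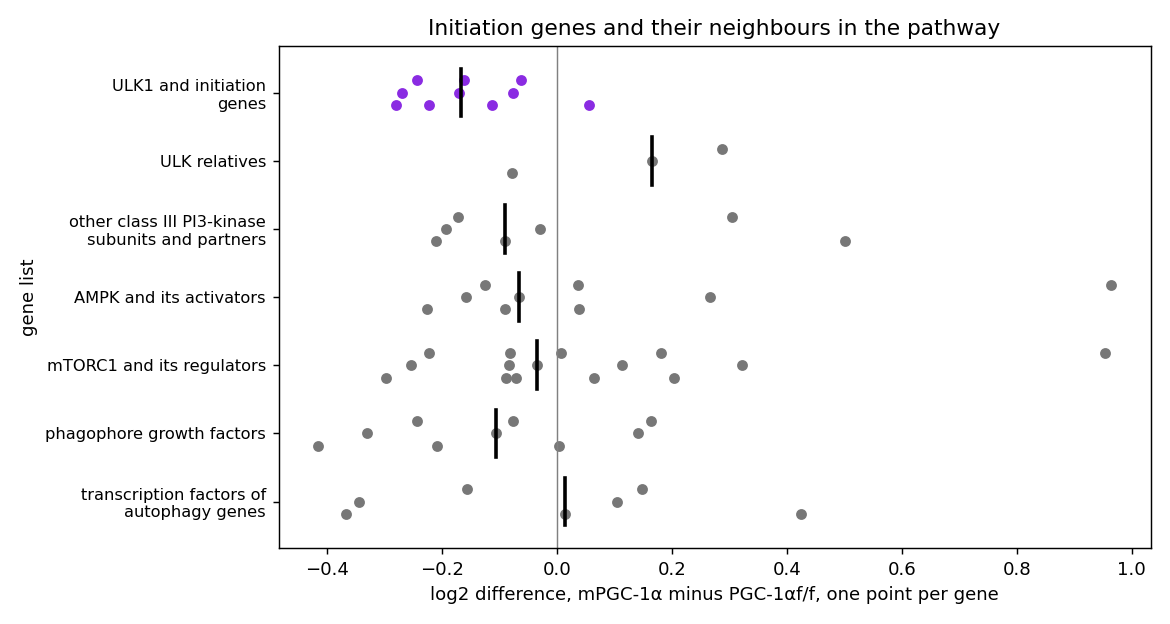
Difference between group means on the log2 scale for the 10 initiation genes (purple) and for the genes of the 6 neighbouring lists (grey), each gene at its brightest probe with a value on every array. Black bars are list medians. Of the initiation genes 9 of 10 lie below 0, and of the neighbouring genes 28 of 50.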

How the data were processed

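Total RNA was amplified, labelled with Cy5 and hybridized by the authors to 1-colour Agilent arrays. The deposited scanner files hold the intensity of each spot after background subtraction and spatial detrending by Feature Extraction, and the deposited series table holds the same intensity without normalization between arrays. The study's methods name GeneSpring and state no test per gene for the arrays.

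Control and outlier spots were left out. Log2 intensity was reduced by the array's 75th percentile, and spots of a probe were averaged. Percentiles lay between 1012 and 2138 units, 27025 to 30272 of 59305 spots were well above background, and 0 were saturated. Only 6 arrays limit the precision, and nothing states whether mice were pooled, so p-values measure the spread between these samples. Probes well above background (at least 0.5 of their spots) on all arrays of a group were tested. Accessions were matched to RefSeq symbols (33767 of 56605 probes). Groups came from the labels. Differences are mPGC-1α minus PGC-1αf/f, from limma 3.58.1 (lmFit and eBayes, two-sided, R 4.3.3, data.table version 1.17.8), with Benjamini-Hochberg adjustment over all probes tested. The fit was tested on simulated data. Python 3.11.15, pandas 2.3.3, numpy 2.4.6 and matplotlib 3.10.9 were also used.

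Members, gene lists and tests were chosen with earlier results of these data known. Named were all members, the reference genes Ppargc1a, Esrra and Cx3cr1, up to 3 genes per list with the lowest p, and the 5 genes most like Ulk1, of which 1 is not reported here. Sh3glb1 and Atg2b, and the choice of promoters and motifs, were added after their values were seen. Marker lists covered microglia, blood leukocytes, oligodendrocytes, endothelial and mural cells, neurons, astrocytes, border macrophages, dissociation response and Y-linked genes. The fits were repeated with quantile normalization, with a shift to the median, with normexp (offset 50) and quantiles, from the deposited series table, with both filters on dim probes, the replicate block, the slide column as fixed or random block, weights per array, a trended and robust eBayes, genes in place of probes, and each array left out.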

Additional observations from a re-analysis of the deposited data

How the results depend on the processing

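The 15 tested probes were refitted under 18 alternatives, and 257 of 265 such fits kept the direction while 0 passed an adjusted p of 0.05 (lowest 0.131). The exceptions in direction were Ambra1 under a median shift (-0.077), with normexp and quantile normalization (-0.071) and with the slide column as a fixed block (-0.029), the dimmest tested Rb1cc1 probe with that fixed block (0.058), Atg13 without mPGC-1α replicate 2 (-0.15 to 0.096 over the left-out arrays), another Rb1cc1 probe (A_55_P2717792, -0.18 to 0.0080) without PGC-1αf/f replicate 1, and Becn1 (-0.28 to 0.12) without that array or mPGC-1α replicate 3. The count of 2 member probes at an unadjusted p under 0.05 was 1 with normexp and quantile normalization, 1 with the slide column as a fixed block, 0 in the deposited table without normalization, 0 without a filter on dim probes, 0 with genes in place of probes, and 0 to 2 when each array was left out (0 without mPGC-1α replicate 2, mPGC-1α replicate 3 or PGC-1αf/f replicate 1, while leaving out mPGC-1α replicate 1 or PGC-1αf/f replicate 2 gave 1). The cause was not tested. Array weights brought 1 probe of the neighbouring genes, of Sh3glb1, past the threshold. Over the left-out arrays the Ulk1 difference ran from -0.36 to -0.08, its value without PGC-1αf/f replicate 3 (-0.13 with the slide column as a fixed block, -0.15 with array weights), the median over the members from -0.27 to -0.15, and the counts past an adjusted p of 0.05 stayed at 0 to 0 for members and neighbours.

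The replicate numbers were not shown to pair samples, since same-numbered arrays deviated from their group means with correlations of 0.139, 0.127 and 0.0187, although each PGC-1αf/f array correlated best with its own number. Replicates 1 and 2 of both groups lay in slide columns 1 and 2, so number and column cannot be told apart for them. The correlation that limma fitted within slide columns was 0.349. With the replicate block the Ulk1 difference stayed -0.27, 1 member probe was at an unadjusted p under 0.05 and 0 passed an adjusted p of 0.05. With 3 arrays a group, the median difference of the member probes (-0.22) was close in size to their median replicate SD (0.18). At the 4 probes without overlap the differences exceeded the spread, at -0.44 to -0.23 beside replicate SDs of 0.11 to 0.20. Signal well above background was absent at 2 probes.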
